A study of Mus musculus with 9 samples.

Results

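Hyaluronan synthesis and binding is described here through 9 genes of 26214 in the table of normalized values of sorted adipose and muscle stromal cells. They are Gfpt1, Gfpt2, Ugdh, Has1, Has2, Tnfaip6, Cd44, Hyal1 and Hyal2. They were chosen by measured values of these libraries, because Gfpt2, Ugdh, Has1 and Tnfaip6 are among the most abundant genes selective for adipose stromal cells. The high values of adipose stromal cells are therefore a description with no test.

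Hyaluronan is a long, unsulfated sugar chain of the extracellular matrix, made at the plasma membrane from UDP-glucuronic acid and UDP-N-acetylglucosamine. Gfpt1 and Gfpt2 catalyse the entry step of the hexosamine pathway, which ends in UDP-N-acetylglucosamine, Ugdh oxidises UDP-glucose to UDP-glucuronic acid, and the synthases Has1, Has2 and Has3 join the sugars and extrude the chain. Tnfaip6, also called TSG-6, transfers heavy chains of inter-alpha-inhibitor onto hyaluronan, Cd44 is its main cell surface receptor, and the hyaluronidases Hyal1 and Hyal2 cut it. Hyaluronan accumulates in injured tissues, muscle included, where it hydrates the matrix around migrating cells.

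RNA was sequenced from adipose stromal cells (ASCs) of subcutaneous fat and fibro-adipogenic progenitors (FAPs) of the quadriceps of C57Bl/6 mice, by the study's methods C57Bl/6J males 8 to 12 weeks old, after depletion of CD31+ and CD45+ cells and enrichment for Sca-1. ASCs (3 libraries) and FAPs (2 libraries) came from mice given NaCl, and injured FAPs (3 libraries) and CD31+CD45+ cells (1 library, in no test) from mice given 50% glycerol in saline, which destroys myofibers. All cells were taken on day 1 after the injection into the quadriceps, and ASCs of glycerol-injected mice were not analysed here. The methods describe triplicates from a pool of cells of 3 animals but only 2 FAP libraries are in the table, and the methods do not say whether each library had its own pool, so p-values measure the spread between libraries, which may be technical.

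The labelled cell types were first set against marker genes. The summed value of 7 mesenchymal progenitor markers (most abundant Col1a1) was 2.06e+06, 1.62e+06 and 1.94e+06 in ASCs, 1.04e+06 and 1.20e+06 in FAPs, 452799, 469233 and 420115 in injured FAPs and 58559.9 in CD31+CD45+ cells, and none of the 7 was at 0 in any library. Ly6a, which encodes Sca-1, was at 46513, 49855 and 36777 in ASCs, 16542 and 10823 in FAPs and 24309, 21308 and 24855 in injured FAPs, against 17672 in CD31+CD45+ cells, above both FAP libraries. Cd34 was at 55027, 42885 and 54644 in ASCs, 32892 and 30696 in FAPs, 11933, 10736 and 11553 in injured FAPs and 17085 in CD31+CD45+ cells. Ly6a and Cd34 thus do not set every stromal group apart from CD31+CD45+ cells, while Pdgfra, Thy1, Dcn, Col1a1 and Pdpn were higher in all 8 stromal libraries. Pdgfra (17754 and 17756 in FAPs, 23649, 25268 and 23236 in injured FAPs) and Pdpn (2858 and 2697, then 19613, 19007 and 18419) had higher values after injury, although the sum was lower. The sum of 9 leukocyte markers was 472, 403 and 380.4 in ASCs, 259.6 and 485 in FAPs, 627, 2830.2 and 545 in injured FAPs and 30922 in CD31+CD45+ cells. Injured FAP replicate 2 stands apart, with Lyz2 as its most abundant leukocyte gene at 725 against 142 and 109 in replicates 1 and 3. In both FAP libraries 7 of these 9 markers were listed at 0, Ptprc among them, and the remaining signal was mostly Cd68.

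Among 9 endothelial markers the sum was 6567, 5198 and 6961 in ASCs (mostly Tek), 6726 and 4573 in FAPs, 1831, 1937 and 1544 in injured FAPs and 315459 in CD31+CD45+ cells. Vwf, Emcn and Cldn5 were at 0 in both FAP libraries and Pecam1 in FAP replicate 2, while Cdh5 was at 1438 and 686 there, so a value of 0 in FAPs is read here only as listed at 0. The 5 smooth muscle and pericyte markers summed to 899.8, 453 and 411 in ASCs, 18888 and 16648 in FAPs and 8351, 7984 and 8426 in injured FAPs (most abundant Rgs5 or Acta2 in FAPs and Cspg4 in injured FAPs). Among the sorted stromal groups, universal fibroblast markers (4 genes) were, unlike most of the 9 genes, lowest in injured FAPs. Their sum was 166891, 108848 and 150652 in ASCs, 26584 and 28733 in FAPs, 7911, 7353 and 7309 in injured FAPs and 1213 in CD31+CD45+ cells. Mature adipocyte markers (4 genes) stayed at or below 113 in every library.

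Mesothelial cells, which line serous surfaces and also make hyaluronan, were looked for with 7 markers. The sum was 419, 61.2 and 144 in ASCs, 60.9 and 68.7 in FAPs and 82.4, 67.4 and 83.9 in injured FAPs, with Krt19 as the most abundant gene in ASCs at 336, 49.8 and 113. The defining markers Msln (10.5, 4.53 and 11.3) and Upk3b (1.32, 2.27 and 2.51) were low in ASCs. Satellite cell markers were low apart from Vcam1, with Pax7 at 31.4 and 65.9 in FAPs and 11.8, 10.8 and 5.34 in injured FAPs, muscle fibre markers (4 genes) summed to at most 790.3 in the 8 libraries, and neutrophil markers (3 genes) summed to 15.7, 105 and 17.5 in injured FAPs. Immediate early genes, which are induced within minutes and also by cell isolation, summed over 7 genes to 576498, 662720 and 753624 in ASCs, 460211 and 415828 in FAPs and 182222, 181441 and 149493 in injured FAPs. Fosb was the most abundant of them in ASCs, at 276176, 239474 and 307554 against 40711.6 and 38509.4 in FAPs. Fosb, Junb and Atf3 were higher in every ASC library than in both FAP libraries. Jun, Egr1 and Ier2 were lower, and Fos overlapped. The part of the immediate early genes, and of the marker differences above, in the values below was not tested. In bulk samples a lower value from fewer cells of a type cannot be told apart from less RNA per cell.

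Values are the authors' normalized reads per gene. A single limma fit to log2(value + 1) held all 8 libraries of ASCs, FAPs and injured FAPs. Genes averaging 10 or more were tested, 13601 in number, and p-values were adjusted by Benjamini-Hochberg. To be called, a gene needed a log2 fold change above 0.58 or below −0.58 along with an adjusted p below 0.05. The added 1 pulls fold changes of low genes towards 0. Total reads recovered from the values were 24052508 to 27481573 in these 8 libraries and 13091077 in the CD31+CD45+ library. All 9 genes passed the filter on low values. Injured FAPs against FAPs was the comparison tested for them. It shares its FAP libraries with the contrast that chose them.

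Between FAPs and injured FAPs, 6 of the 9 genes were called higher in injured FAPs, against 24.9% of all genes tested. Another, Hyal1, was called lower, against 27.7% of all genes, and Gfpt2 and Hyal2 were not called. The median log2 fold change was 1.25 over the 9 genes and −0.05 over all genes tested. The choice favoured genes with low values in the same FAP libraries. Part of these counts and of the median may come from that choice, and no support is drawn from them. The genes called higher were Gfpt1 and Ugdh of precursor supply, Has1 and Has2 of the synthases, and Tnfaip6 and Cd44 of binding. Not every gene of these steps rose. Gfpt2, not called, had a mean of 13499.5 in injured FAPs against 2426 for Gfpt1, and Has3, outside the 9 genes, was called lower. Under quantile normalization, a common 75th percentile or the library total as the scale, each of the 9 genes kept the same call. The size of differences from ASCs depends more on the scaling, and their range over the deposited scaling and these 3 is given for each gene high in ASCs. Scaling to the library total moved the median of all genes by 0.13 in this comparison, by −0.57 in ASCs against FAPs and by 0.70 in injured FAPs against ASCs, and the common 75th percentile moved the latter comparisons by −0.17 and 0.12.

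**Figure D1:**
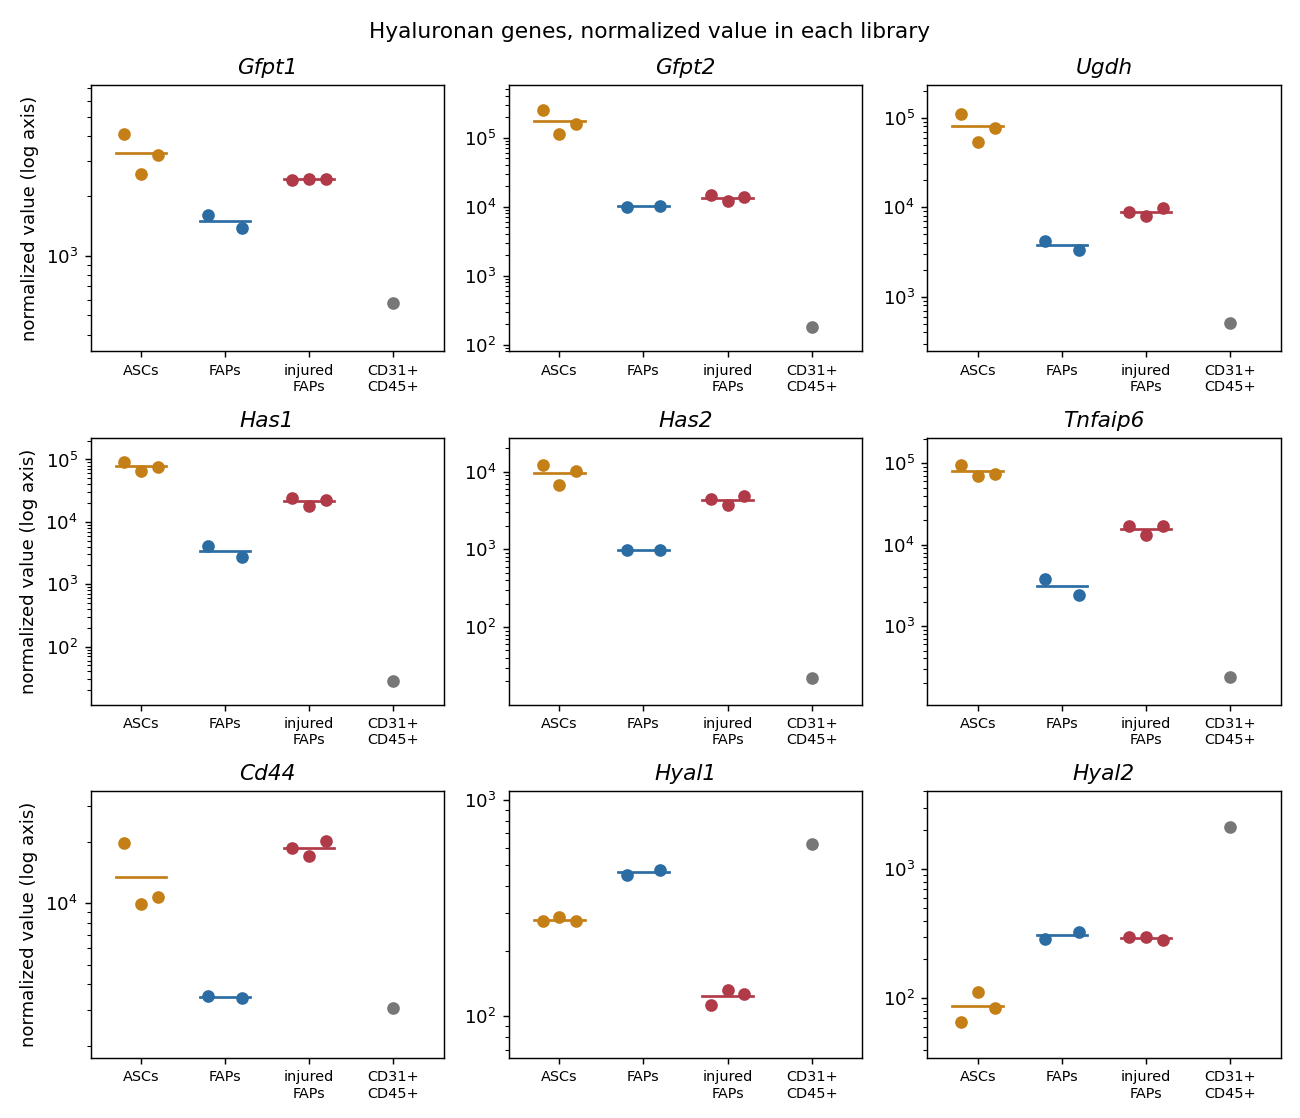
Normalized value of each gene (log axis) in every library of ASCs, FAPs, injured FAPs and CD31+CD45+ cells; points are libraries and lines the group means. For 6 genes all ASC libraries lie above all injured FAP libraries and these above both FAP libraries, while Cd44 overlaps between ASCs and injured FAPs, and Hyal1 and Hyal2 follow other orders.

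Precursor supply is described first. Gfpt2 was at 252246, 112007 and 156199 in ASC replicates 1 to 3, 10030 and 10322 in FAPs, 14914, 11942 and 13643 in injured FAPs and 184 in CD31+CD45+ cells. All ASC libraries lay far above the rest, with replicate 1 highest, while the injured FAP libraries lay close above the FAP libraries without overlap. The mean in ASCs was 17 times that of FAPs and 12.9 times that of injured FAPs. Over the 4 scalings the log2 difference ran from 3.07 to 4.01 in ASCs against FAPs and from −3.61 to −2.67 in injured FAPs against ASCs. Injured FAPs and FAPs differed by a log2 fold change of 0.40 (95% interval −0.20 to 1.00, limma adjusted p = 0.21), which was not called, though all 3 injured FAP libraries were higher. Over the 19 alternatives the adjusted p ran from 0.00508 to 0.397. At the same fold change it was lowest with only the compared groups in the fit, and was 0.0326 without ASC replicate 1, so the interval depends on the spread of ASCs, and the fold change stayed below the threshold of 0.58 throughout.

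Gfpt1, the isoenzyme found in most tissues, was at 4113, 2582 and 3202 in ASCs, 1597 and 1381 in FAPs, 2399, 2430.4 and 2448 in injured FAPs and 581 in CD31+CD45+ cells. Its groups did not overlap but lay much nearer to each other than those of Gfpt2. Gfpt1 rose in injured FAPs (log2 fold change 0.71, standard error 0.16, limma adjusted p = 0.00348), in 3 of 3 libraries. The mean in ASCs was 2.22 times that of FAPs and 1.36 times that of injured FAPs, and the latter order turns with the library total as the scale, where injured FAPs exceeded ASCs by 0.28 on the log2 scale. Across the scalings the log2 difference ran from 0.56 to 1.13 in ASCs against FAPs and from −0.42 to 0.28 in injured FAPs against ASCs.

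Ugdh was at 110787, 53791 and 77244 in ASCs, 4223 and 3307 in FAPs, 8954, 8034 and 9758 in injured FAPs and 513 in CD31+CD45+ cells. The ASC libraries were again highest and the groups did not overlap. Ugdh rose in injured FAPs (log2 fold change 1.25, standard error 0.25, limma adjusted p = 0.00132; higher in 3 of 3 libraries), to 2.37 times the mean of FAPs, against 21.4 times in ASCs. Leaving out FAP replicate 2 gave 1.07 and leaving out FAP replicate 1 gave 1.43 on the log2 scale. With the 4 scalings the log2 difference ran from 3.5 to 4.37 in ASCs against FAPs and from −3.12 to −2.33 in injured FAPs against ASCs.

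Per kb of the longest coding transcript, the value of Gfpt2 was 129.8, 91.8 and 103 times that of Gfpt1 in ASCs, 13.3 and 15.8 times in FAPs and 13.2, 10.4 and 11.8 times in injured FAPs. In CD31+CD45+ cells the ratio was 0.669, so there Gfpt1 had the higher level per kb. Per kb of all exons the ratios were 110.5, 78.1 and 87.9 in ASCs, 11.3 and 13.5 in FAPs and 11.2, 8.85 and 10 in injured FAPs. By either length ASCs stood apart in how far Gfpt2 exceeded Gfpt1, and the ratios of injured FAPs lay just below those of FAPs.

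Of the synthases, Has1 was the most abundant in ASCs, FAPs and injured FAPs. Its value was 91799, 66514 and 76383 in ASCs, 4082 and 2709 in FAPs, 24495, 17848 and 22457 in injured FAPs and 28.2 in CD31+CD45+ cells. The groups did not overlap, and each injured FAP library lay between the FAP and the ASC libraries. Has1 rose in injured FAPs (log2 fold change 2.69, standard error 0.20, limma adjusted p = 2.53e-06; higher in 3 of 3 libraries), to 6.36 times the mean of FAPs. ASCs stood at 23 times FAPs and 3.62 times injured FAPs. Depending on the scaling, the log2 difference ran from 3.71 to 4.54 in ASCs against FAPs and from −1.86 to −0.95 in injured FAPs against ASCs.

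Has2, the synthase needed for heart development, was at 12361, 6664 and 10167 in ASCs, 986 and 987 in FAPs, 4405, 3715 and 4823 in injured FAPs and 22.0 in CD31+CD45+ cells. The FAP libraries were nearly equal and the order of the groups was that of Has1. Has2 rose in injured FAPs (log2 fold change 2.12, standard error 0.22, limma adjusted p = 1.55e-05; 3 of 3 libraries), to 4.37 times FAPs, and stood at 9.86 times FAPs in ASCs. For Has2 the scalings differed, and the log2 difference ran from 2.69 to 3.25 in ASCs against FAPs and from −1.14 to −0.44 in injured FAPs against ASCs. Has2os, the antisense gene that overlaps 182 bases of Has2 exons, was high in ASCs but lower in injured FAPs than in FAPs, at 90.9, 66.8 and 64.0 in ASCs, 33.3 and 35.8 in FAPs, 20.4, 16.3 and 16.8 in injured FAPs and 0 in CD31+CD45+ cells. It fell in injured FAPs (log2 fold change −0.92, standard error 0.28, limma adjusted p = 0.0135), a call lost, with an adjusted p above 0.05, without FAP replicate 2 (−0.87) and with quantile normalization (−0.43). The strand setting of the counting is not given in the sources used here, so reads in the overlap cannot be assigned between the pair.

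Has3 was low in the sorted stromal cells, at 25.0, 19.3 and 23.9 in ASCs, 51.3 and 36.7 in FAPs and 9.42, 7.75 and 6.86 in injured FAPs, and at 1857 in CD31+CD45+ cells. It was the synthase of the CD31+CD45+ library and fell in injured FAPs (log2 fold change −2.31, standard error 0.35, limma adjusted p = 0.000214), against the direction of Has1 and Has2. Of the synthase value per kb, Has1 held 93.7, 95.3 and 93.8% in ASCs, 89.0 and 84.4% in FAPs and 91.8, 90.7 and 90.4% in injured FAPs. Has3 held 94.4% in CD31+CD45+ cells. Per kb of all exons the Has1 share was 87.4, 90.3 and 87.6% in ASCs, 79.0 and 71.5% in FAPs and 83.9, 81.8 and 81.4% in injured FAPs, so by both lengths it was lowest in FAPs and highest in ASCs.

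**Figure D2:**
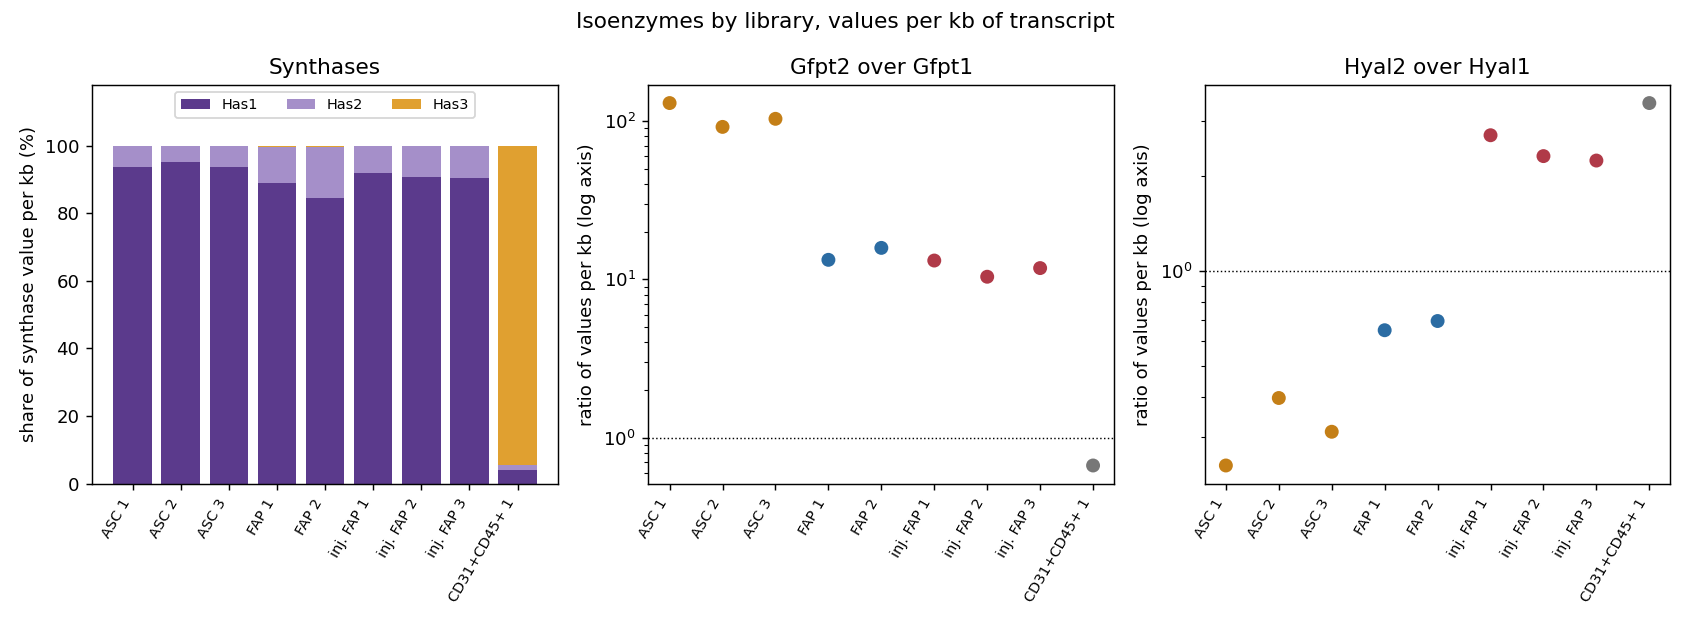
Share of Has1, Has2 and Has3 in the summed synthase value per kb of transcript (bars), and the ratios of Gfpt2 to Gfpt1 and Hyal2 to Hyal1 per kb (points, log axes, dotted line at 1), by library. Has1 holds most of the synthase value in ASC, FAP and injured FAP libraries and Has3 in CD31+CD45+ cells, the Gfpt2 ratio stands apart in ASCs, and the Hyal2 ratio is above 1 only in injured FAP and CD31+CD45+ libraries.

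Has1 and Tnfaip6 were each the other's nearest profile. For each of Has1, Has2 and Tnfaip6, the 3 genes with the smallest root mean square difference between centred log2(value + 1) profiles over the 8 libraries were taken from all genes tested. For Has1 these were Tnfaip6 (0.21), the long noncoding RNA Gm16685 (0.25) and the matrix metalloproteinase Mmp3 (0.28), against a median of 1.84 over all genes. For Tnfaip6 they were Has1 (0.21), Mmp3 (0.25) and the hexokinase Hk2 (0.27), against a median of 1.92. For Has2 they were the thioredoxin reductase Txnrd1 (0.15), the chromatin remodelling factor Baz1a (0.15) and the lactate carrier Slc16a1 (0.15), against a median of 1.39. Has1 came at place 146 in the order for Has2, and Has2 at place 33 in the order for Has1 (0.55 in both). The distances include the ASC and FAP libraries whose values chose the genes, so part of the likeness of Has1 and Tnfaip6 is given by that choice, and no support is drawn from it. Mmp3 had mean values of 16831 in ASCs, 805 in FAPs and 3857 in injured FAPs.

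The 250 bases before the start site are shown for Has1 and Tnfaip6, which were called higher in injured FAPs, and for Gfpt2, which was far higher in ASCs but not called in injured FAPs. They are from RefSeq (GRCm38.p6), 5′ to 3′ on the gene's strand, at chr2:52037863-52038112 for Tnfaip6 (plus strand), chr17:17855189-17855438 for Has1 (minus strand) and chr11:49793905-49794154 for Gfpt2 (plus strand). Against the gene starts in GENCODE M21, these start sites lie 104 bases inside the gene for Tnfaip6 and 17 for Has1, and 23 before it for Gfpt2. Of the other promoters searched, the start sites of Ugdh (107 bases), Hyal1 (23) and Hyal2 (1218) also lie inside the annotated gene. Capitals mark the letters searched, in either orientation.
Tnfaip6: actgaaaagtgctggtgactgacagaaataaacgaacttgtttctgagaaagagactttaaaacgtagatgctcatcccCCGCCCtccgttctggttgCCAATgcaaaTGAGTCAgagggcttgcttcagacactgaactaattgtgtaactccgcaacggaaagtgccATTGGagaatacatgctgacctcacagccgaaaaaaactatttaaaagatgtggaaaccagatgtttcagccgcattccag
Has1: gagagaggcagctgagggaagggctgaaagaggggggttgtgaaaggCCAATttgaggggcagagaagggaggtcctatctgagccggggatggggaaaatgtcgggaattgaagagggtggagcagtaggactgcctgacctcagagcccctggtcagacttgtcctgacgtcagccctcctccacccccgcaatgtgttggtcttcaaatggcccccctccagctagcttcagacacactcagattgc
Gfpt2: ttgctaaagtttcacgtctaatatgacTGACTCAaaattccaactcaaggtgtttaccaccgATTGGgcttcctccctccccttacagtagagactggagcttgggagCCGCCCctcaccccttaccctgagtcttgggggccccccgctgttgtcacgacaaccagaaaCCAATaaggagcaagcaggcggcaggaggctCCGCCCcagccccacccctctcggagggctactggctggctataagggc
The motifs searched on both strands from 250 bases before to 50 after the start were the TATA letters TATAAA, the CCAAT box, the GC box GGGCGG, the AP-1 letters TGANTCA and the NF-kB-type letters GGANTTTCC and GGGANTTCC. The letters TGANTCA occurred in Tnfaip6 as TGAGTCA with its first base at −142 and in Gfpt2 as TGACTCA at −223, and in none of the other 6 genes with an entry (8 of the 9 genes matched). They occur in 7.81% of 32851 promoters and in 6.27% of those of tested genes. CCAAT was in Tnfaip6, Gfpt2, Has1, Gfpt1 and Hyal1 and occurs in 37.4% of promoters (42.8% for tested genes). GGGCGG was in all of the 8 except Has1 and occurs in 35.7% of promoters, but in 68.5% of those of tested genes. No entry held TATAAA (13.6% of promoters, 8.80% for tested genes) or the letters GGANTTTCC (1.25% and 1.66%) and GGGANTTCC (1.68% and 2.60%). A match is a description of these letters and not of a factor's binding.

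Tnfaip6 itself was at 94274, 69471 and 74577 in ASCs, 3734 and 2432 in FAPs, 17159, 13003 and 16897 in injured FAPs and 234 in CD31+CD45+ cells. Again no group overlapped, FAP replicate 1 exceeded replicate 2, and injured FAP replicate 2 was the lowest of its group. Tnfaip6 rose in injured FAPs (log2 fold change 2.37, standard error 0.20, limma adjusted p = 5.31e-06; 3 of 3 libraries), to 5.09 times the mean of FAPs. The mean of ASCs was 25.8 times that of FAPs and 5.06 times that of injured FAPs. By scaling, the log2 difference ran from 3.89 to 4.71 in ASCs against FAPs and from −2.34 to −1.44 in injured FAPs against ASCs.

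Cd44 broke the pattern of the other ASC-high genes. It was at 19683, 9938 and 10742 in ASCs, 3500.2 and 3418 in FAPs, 18562, 17015 and 20073 in injured FAPs and 3074 in CD31+CD45+ cells. Injured FAPs and ASCs overlapped, because ASC replicate 1 was nearly as high as the highest injured FAP library while ASC replicates 2 and 3 were lower than all of them. Cd44 rose in injured FAPs (log2 fold change 2.42, standard error 0.24, limma adjusted p = 1.31e-05; 3 of 3 libraries), to 5.36 times FAPs, and the mean of injured FAPs was 1.38 times that of ASCs. Here too the scaling mattered, and the log2 difference ran from 1.25 to 1.89 in ASCs against FAPs and from 0.53 to 1.24 in injured FAPs against ASCs. FAPs and CD31+CD45+ cells had similar values.

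The hyaluronidases were low in all stromal libraries. Hyal1, a lysosomal enzyme, was at 275, 287 and 275 in ASCs, 451 and 473 in FAPs, 112, 132 and 127 in injured FAPs and 628 in CD31+CD45+ cells. FAPs were highest and injured FAPs lowest of the sorted stromal groups, with no overlap. Hyal1 fell in injured FAPs (log2 fold change −1.89, standard error 0.14, limma adjusted p = 1.90e-06; lower in 3 of 3 libraries), and the mean of FAPs was 3.73 times that of injured FAPs. Its exons overlap those of Naa80 on the same strand over 1920 bases and those of Hyal3 over 159. Naa80, an actin N-terminal acetyltransferase gene, was at 321, 383 and 419 in ASCs, 985 and 993 in FAPs and 319, 349 and 281 in injured FAPs, so it too was lower in every injured FAP library than in FAPs. How reads in the overlap were counted is not given in the sources used here, and the value of Hyal1 is uncertain to that extent.

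Hyal2, a membrane-anchored enzyme that cuts long chains, was at 65.9, 112 and 84.1 in ASCs, 289 and 325 in FAPs, 298, 301 and 281 in injured FAPs and 2109 in CD31+CD45+ cells. ASCs were lowest and the FAP and injured FAP libraries overlapped. The log2 fold change of injured FAPs against FAPs was −0.06 (95% interval −0.53 to 0.40, limma adjusted p = 0.806), not called. Its sign turned with the library total as the scale (0.07) and without FAP replicate 2 (0.02). Per kb, Hyal2 over Hyal1 was 0.243, 0.397 and 0.311 in ASCs, 0.651 and 0.697 in FAPs and 2.70, 2.32 and 2.24 in injured FAPs, so the order of the pair turned in injured FAPs. The summed level per kb of Has1, Has2 and Has3 was 394, 230.4 and 292 times that of Hyal1, Hyal2 and Hyal3 in ASCs, 8.07 and 5.05 times in FAPs, 85.6, 62.1 and 83.2 times in injured FAPs and 0.352 times in CD31+CD45+ cells. Per kb of all exons it was 238, 135 and 174 times in ASCs, 4.97 and 3.24 times in FAPs and 49.4, 36.5 and 49.2 times in injured FAPs, and Hyal2 over Hyal1 was 0.736 and 0.787 in FAPs and 3.05, 2.62 and 2.53 in injured FAPs, in the same order of groups. The synthase to hyaluronidase ratio leaves out Cemip and Cemip2, described below. Per kb of the longest coding transcript, Cemip2 averaged 206 in ASCs, 42.9 in FAPs and 171 in injured FAPs. Hyal1 averaged 92.5, 153 and 41.1 there. The ratio is therefore not that of synthesis to breakdown as a whole.

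**Figure D3:**
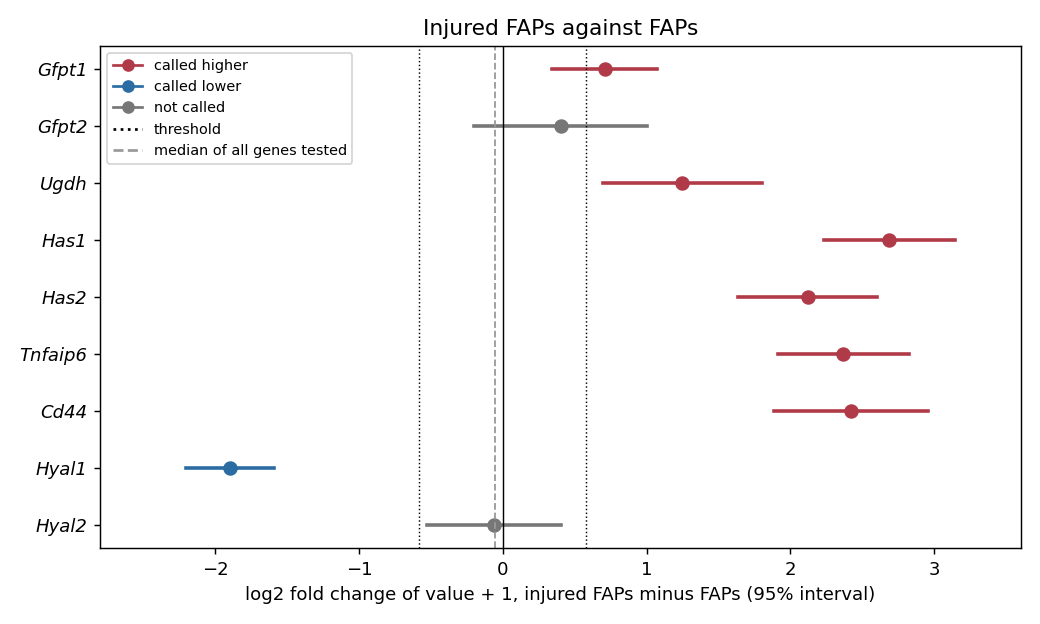
Log2 fold change of value + 1 between injured FAPs and FAPs for the 9 genes (points) with 95% intervals from limma (lines); dotted lines mark the threshold of 0.58 and the dashed line the median of all genes tested, −0.05. The intervals of Has1, Has2, Tnfaip6 and Cd44 lie above 1.6, that of Hyal1 lies below −1.5, and those of Gfpt2 and Hyal2 include 0.

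The order of the levels per kb changed between groups and in part with the length used. In ASCs, per kb of the longest coding transcript, Gfpt2 was at 58868 ± 24329.7 (SD, n = 3), Tnfaip6 at 46456 ± 7659, Has1 at 37342 ± 6083 and Ugdh at 31611 ± 11234. Per kb of all exons Tnfaip6 (46456) came before Gfpt2 (31029), Has1 (17316) and Ugdh (11938). By both lengths these 4 were the highest of the 9 genes in ASCs and in FAPs. In injured FAPs Has1 (10310.3 ± 1626, SD, n = 3) and Tnfaip6 (9173 ± 1361) came before Gfpt2 (4581 ± 506), Ugdh (3496 ± 338) and Cd44 (3304 ± 272) per kb of the longest coding transcript. Per kb of all exons Tnfaip6 (9173) was above Has1 (4781), and Cd44 (2738) above Gfpt2 (2415), so the order within the first 5 genes turned with the length, with Has1 and Tnfaip6 in the first places by both. The 9 genes together held 1.62, 1.04 and 1.19% of all values in ASCs, 0.126 and 0.112% in FAPs and 0.431, 0.36 and 0.439% in injured FAPs.

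Single libraries moved several of these genes at the same time. ASC replicate 1 was the highest and replicate 2 the lowest ASC library for Gfpt1, Gfpt2, Ugdh, Has1, Has2, Tnfaip6 and Cd44, and the sums of the mesenchymal progenitor, universal fibroblast, mesothelial, adipocyte and muscle fibre markers had the same order, while the immediate early sum was lowest in replicate 1. Other marker sums did not have this order. The endothelial sum was highest in ASC replicate 3 (6961). The leukocyte (380.4), smooth muscle and pericyte (411), Schwann cell (91.6), satellite cell (2658) and neutrophil (1.26) sums were lowest in ASC replicate 3. Injured FAP replicate 2, the library with the leukocyte excess, was the lowest of its group for Gfpt2, Ugdh, Has1, Has2, Tnfaip6 and Cd44. Without it the log2 fold changes of injured FAPs against FAPs were 2.82 for Has1, 2.22 for Has2, 2.50 for Tnfaip6, 2.48 for Cd44 and 1.32 for Ugdh, each slightly larger than with it.

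The other genes of hyaluronan metabolism were taken from a list of 55, of which 42 passed the filter on low values. In injured FAPs against FAPs, 18 of the 42 were called higher (42.9%, against 24.9% of all genes tested) and 11 lower (26.2%, against 27.7%), with a median log2 fold change of 0.40 against −0.05 over all genes. In ASCs against FAPs, 20 were higher (47.6%, against 23.4% of all genes) and 8 lower (19.0%, against 23.8%), with a median of 0.58 against 0.00. In injured FAPs against ASCs, 10 were higher (23.8%, against 25.0% of all genes) and 18 lower (42.9%, against 25.8%), with a median of −0.36 against 0.02. With the library total as the scale, these splits were 12 higher of 24 called in ASCs against FAPs and 16 higher of 25 called in injured FAPs against ASCs. That scale also moved the split of all called genes, from 49.6% to 20.1% higher in ASCs against FAPs and from 49.3% to 81.3% higher in injured FAPs against ASCs. The 3 comparisons share libraries pairwise. Values below are log2 fold changes with adjusted p from limma.

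Downstream of Gfpt1 and Gfpt2, the remaining steps to UDP-N-acetylglucosamine rose in injured FAPs and, with the deposited scaling, were higher still in ASCs. With the library total as the scale, Gnpnat1 (−0.05) and Pgm3 (−0.12) were not called in injured FAPs against ASCs. Uap1, which makes UDP-N-acetylglucosamine, was at 44706, 26101 and 30794 in ASCs, 5133 and 4214 in FAPs and 11107, 9872 and 11798 in injured FAPs. Called higher in injured FAPs were Uap1 (1.23, adjusted p = 0.000376), the acetyltransferase Gnpnat1 (0.83, adjusted p = 0.000139) and the mutase Pgm3 (0.58, adjusted p = 0.00164), of which Pgm3 lay at the threshold and was lost under 7 of 19 settings, at 0.50 without FAP replicate 2 and 0.56 and 0.57 without injured FAP replicates 2 and 3. In ASCs against FAPs the same genes stood at 2.83, 1.58 and 1.40, with adjusted p of 1.71e-06, 2.27e-06 and 5.91e-06. The paralog Uap1l1 (0.66, adjusted p = 0.00497) and the salvage kinase Nagk (0.70, adjusted p = 0.000659) were also higher in ASCs, and Gnpda1, which acts in the reverse direction, was lower (−0.89, adjusted p = 0.000221). The Uap1l1 call was lost without ASC replicate 1 (0.50) or FAP replicate 1 (0.56), and those of Uap1l1 and Nagk with the common 75th percentile or the library total.

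On the side of UDP-glucuronic acid, Pgm2 (1.07, adjusted p = 0.00055) and Uxs1 (1.10, adjusted p = 5.41e-05) were called higher in injured FAPs. Pgm2 can interconvert glucose phosphates, and Uxs1 uses UDP-glucuronic acid to make UDP-xylose. In ASCs against FAPs, Pgm2 (1.66, adjusted p = 3.52e-05), the UDP-glucose pyrophosphorylase Ugp2 (1.20, adjusted p = 6.08e-05) and Uxs1 (0.65, adjusted p = 0.00198) were higher, the last lost without ASC replicate 1 (0.55) or FAP replicate 2 (0.53) and under every other scaling. Of the sugar carriers, Slc35a3 was higher in injured FAPs than in FAPs (0.83, adjusted p = 0.000269) and than in ASCs (0.92, adjusted p = 5.36e-05). Slc35d2 was lower in ASCs than in FAPs (−1.41, adjusted p = 0.00552), with −1.19 and no call without FAP replicate 1, and in injured FAPs against FAPs it was called only without ASC replicate 1 (−0.61) or with the compared groups alone in the fit.

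Breakdown genes split. Cemip, a hyaluronan-degrading protein of fibroblasts, was at 3.95, 1.13 and 1.26 in ASCs, 12.4 and 38.6 in FAPs and 76.9, 153 and 85.4 in injured FAPs, and its relative Cemip2 at 1865, 1156 and 1093, 318 and 254 and 1177, 1002 and 1238. Both rose in injured FAPs, Cemip (2.14, adjusted p = 0.00742) and Cemip2 (1.99, adjusted p = 2.22e-05), and the Cemip call was lost without FAP replicate 1 (1.36, adjusted p above 0.05). In ASCs against FAPs they went opposite ways, with Cemip lower (−3.00, adjusted p = 0.00118) and Cemip2 higher (2.22, adjusted p = 1.28e-05). ASC values of Cemip rest on 1 to 3 reads a library. Among lysosomal enzymes that take the fragments apart, Gusb (0.89, adjusted p = 3.20e-05) rose while Hexa (−1.21, adjusted p = 1.95e-05) fell in injured FAPs. The hyaluronidase Hyal3, at 44.7 and 67.7 in FAPs and 20.4, 11.6 and 9.92 in injured FAPs, fell as well (−1.97, adjusted p = 0.00467), which did not hold without FAP replicate 2 (−1.67, adjusted p above 0.05). In ASCs against FAPs, Hexa (0.71) and Gusb (0.81) were called higher and Hyal3 (−1.62) lower, with adjusted p of 0.000864, 7.52e-05 and 0.0142. With the library total as the scale, Hexa (0.14) and Gusb (0.25) were not called there, and all 3 calls were lost with quantile normalization. Hyal3 was not called without FAP replicate 2 (−1.33). Hyal4, Hyal5, Hyal6 and Spam1 were at 0 in all 9 libraries.

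Receptors other than Cd44 included large differences. Hmmr, also called RHAMM, which binds hyaluronan and acts on the mitotic spindle, was at 21.1, 14.7 and 46.4 in ASCs, 19.0 and 46.1 in FAPs and 905, 1032 and 993 in injured FAPs. It rose in injured FAPs (4.99, adjusted p = 6.76e-06) and was also higher there than in ASCs (5.26, adjusted p = 1.52e-06). Layilin, encoded by Layn, was at 1066, 1201 and 839 in ASCs, 513 and 421 in FAPs and 1898, 1809.6 and 1879 in injured FAPs, and rose too (2.0, adjusted p = 2.36e-06). Hmmr thus set injured FAPs apart from both other groups, and Layn was highest in them.

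Lyve1 and Stab1, receptors of lymphatic and sinusoidal endothelium and of macrophages, were listed at 0 in both FAP libraries. Stab1 was at 228, 181 and 174 in ASCs, 64.3, 203 and 64.1 in injured FAPs and 8473 in CD31+CD45+ cells, and Lyve1 at 22.4, 40.8 and 27.6, 14.1, 17 and 11.4 and 1092. Both were called higher in ASCs and in injured FAPs than in FAPs. Stab1 is 1 of 6 genes at 0 in both FAP libraries with a mean of at least 100 in both other groups, along with Sele, Plvap, Srgn, Cd14 and Mpeg1, genes of endothelial cells or leukocytes that were chosen after their values were seen. In injured FAPs Stab1 was highest in replicate 2, as the leukocyte markers were, and the part of such cells was not tested. Tlr2 was higher in ASCs than in FAPs (1.88, adjusted p = 4.48e-06). Tlr4 fell in injured FAPs (−0.64, adjusted p = 0.000935), by less than the threshold without FAP replicate 1 (−0.53) or injured FAP replicate 1 (−0.58) and with the library total as the scale (−0.51). Stab2 had at most 17.6 in any library and was called in injured FAPs against ASCs (−1.82, adjusted p = 0.0181), which was lost without injured FAP replicate 3 (−1.15). Against FAPs it was not called in the fit used, and was called without injured FAP replicate 2 (−2.06), with a pseudocount of 8 (−0.75) and with the common 75th percentile (−1.63).

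Among matrix proteins of hyaluronan networks, Ptx3 and Vcan were the most abundant to rise. Ptx3, which joins Tnfaip6 and heavy chains in the hyaluronan network, was at 26306, 30861 and 28633 in ASCs, 985 and 579.5 in FAPs and 18357, 17513 and 16854 in injured FAPs. Its rise (4.54, standard error 0.19, adjusted p = 1.88e-07) was larger than that of any of the 9 genes, and ASCs were higher than FAPs by 5.24 (adjusted p = 3.10e-08). The proteoglycan versican, encoded by Vcan, was at 14013, 19767 and 18659.9 in ASCs, 12394 and 9672 in FAPs and 24389.9, 25754 and 25679.8 in injured FAPs, and rose as well (1.21, adjusted p = 9.77e-05). In ASCs against FAPs Vcan was called at 0.66 (adjusted p = 0.00525) but under no other scaling, nor without ASC replicate 2 (0.56) or FAP replicate 2 (0.48). Injured FAPs exceeded ASCs in Vcan by 0.55, which was called only without ASC replicate 2 (0.64) or replicate 3 (0.60) and under other scalings or edgeR. C1qbp, a mainly mitochondrial protein that also binds hyaluronan, rose in injured FAPs (2.21, adjusted p = 3.48e-06) and was higher in ASCs than in FAPs (1.17, adjusted p = 0.000284).

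Heavy chain genes of the inter-alpha-inhibitor family did not follow Tnfaip6 in injured FAPs. Itih5, the most abundant, was at 18436, 16669 and 22072 in ASCs, 17569.7 and 17918 in FAPs and 4435, 4002 and 4698 in injured FAPs, and Itih2 at 206, 122 and 115, 726 and 660.4 and 274, 250.3 and 259. Injured FAPs were below FAPs in every library for both, and the falls were −2.02 for Itih5 (adjusted p = 9.83e-07) and −1.40 for Itih2 (adjusted p = 0.000324). Itih2 was also lower in ASCs than in FAPs (−2.27, adjusted p = 1.50e-05). Itih4 was at 54.0, 39.6 and 54.0 in ASCs, 18.1 and 32.9 in FAPs and 0, 2.32 and 3.05 in injured FAPs, where it was called lower than in FAPs. Between ASCs and FAPs it was not called in the fit used, and was called higher in ASCs with a pseudocount of 8 (0.80) and with quantile normalization (1.52). Ambp, the light chain gene, was at 0 in all 9 libraries, and Itih1 and Itih3 did not pass the filter on low values.

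Aggrecan, encoded by Acan, a cartilage proteoglycan that binds hyaluronan, was at 0 in all ASC libraries and at 179 and 105 in FAPs and 182, 187 and 174 in injured FAPs. It was thus at least 38.3-fold higher in FAPs and at least 48.8-fold higher in injured FAPs than the level of 3 reads per ASC library, and it was called lower in ASCs in both comparisons. The link protein gene Hapln4 was at 97.5, 100.8 and 131 in ASCs, 46.6 and 36.7 in FAPs and 16.5, 17.8 and 14.5 in injured FAPs, lower in injured FAPs (−1.30, adjusted p = 0.00146) and higher in ASCs (1.37, adjusted p = 0.00121) than in FAPs. The ERM proteins, which tie the tail of Cd44 to actin, split in injured FAPs, where Msn (1.07, adjusted p = 3.89e-05) and Rdx (0.58, adjusted p = 0.000293) were called higher and Ezr (−1.26, adjusted p = 0.000333) lower. Rdx lay at the threshold, with 0.55 without FAP replicate 2, 0.58 without injured FAP replicate 2 and 0.54 without injured FAP replicate 3, none of them called. Ezr was also lower in ASCs than in FAPs (−0.88, adjusted p = 0.00377). In the limma fit used, Amdhd2, Gnpda2, Pgm1, Slc35d1 and Habp4 were called in none of the comparisons. Pgm1 was called higher in injured FAPs than in FAPs by edgeR (0.61), by DESeq2 (0.59) and with the library total (0.70), and Amdhd2 and Habp4 were each called in 1 comparison with the library total.

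**Figure D4:**
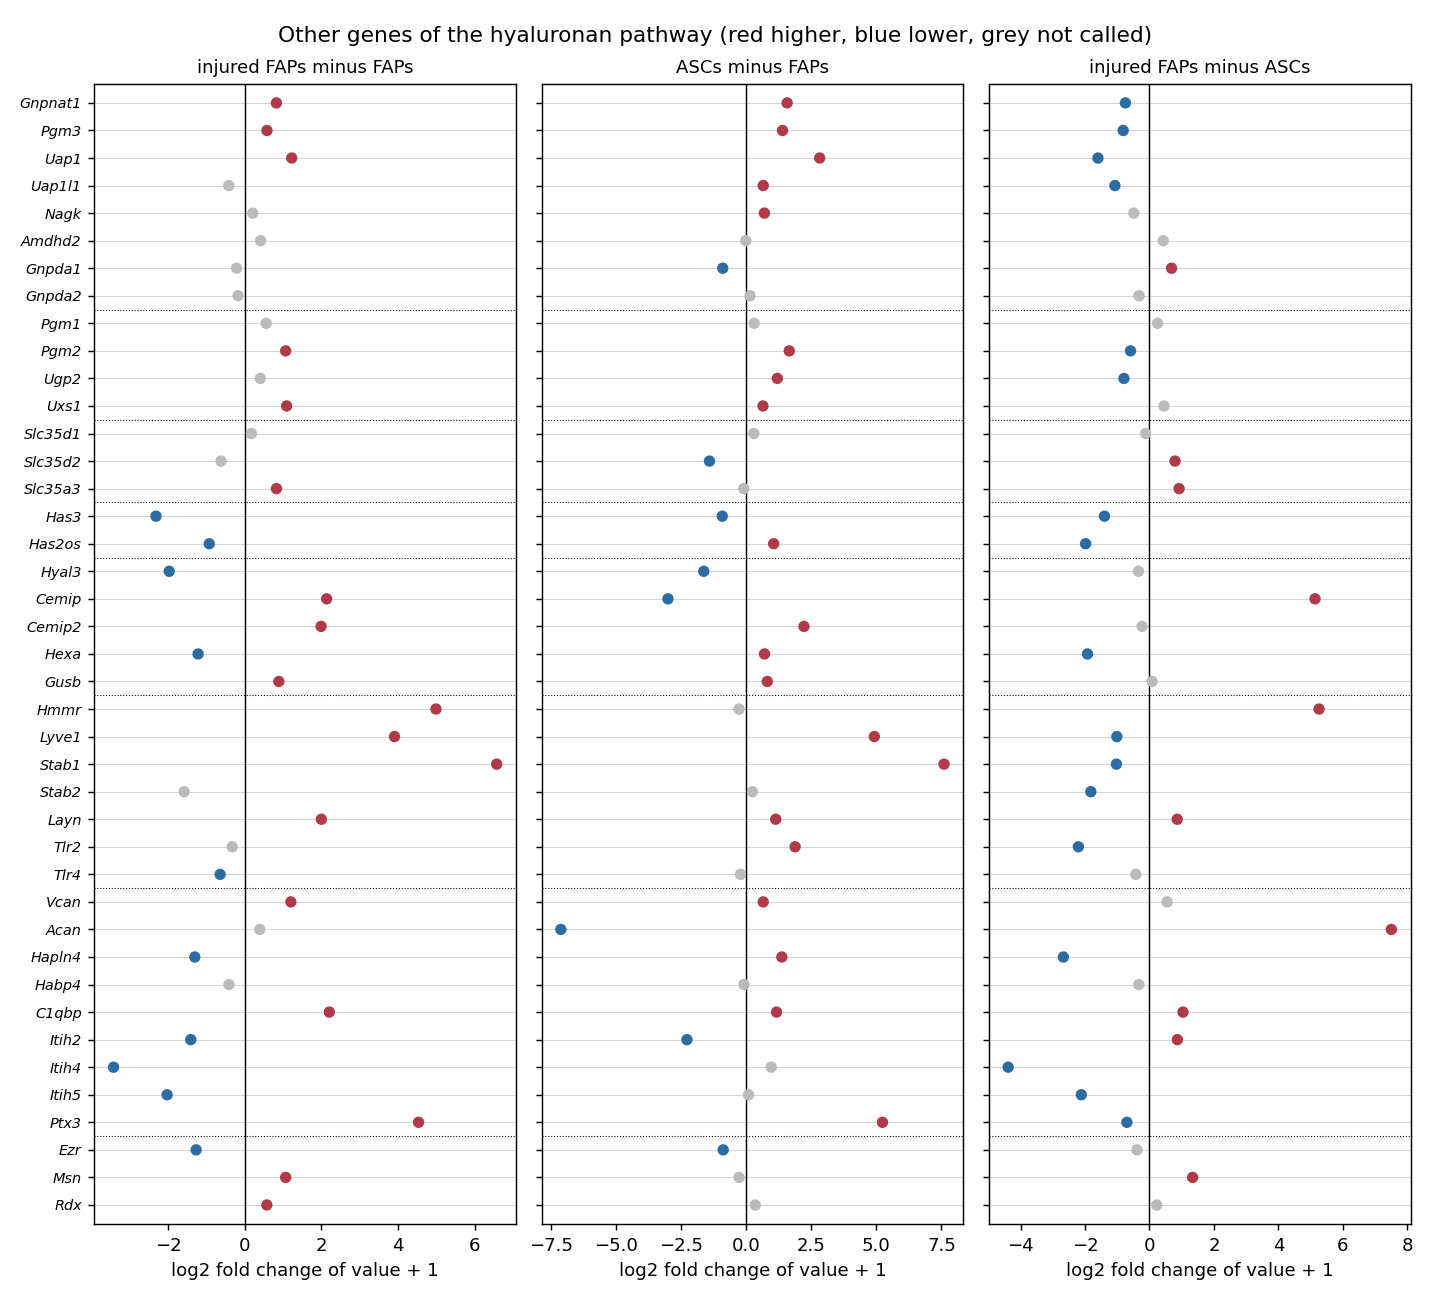
Log2 fold change of value + 1 for genes of the pathway list in injured FAPs against FAPs, ASCs against FAPs and injured FAPs against ASCs, grouped by role between dotted lines; red is called higher, blue lower and grey not called. Hmmr and Ptx3 lie far to the right in injured FAPs against FAPs, and Stab1, Lyve1 and Acan reach their extremes against groups listed at 0.

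Set directly against ASCs, injured FAPs were lower for 6 precursor enzymes, among them Uap1 (−1.60, adjusted p = 2.37e-05), and for Hexa (−1.92, adjusted p = 3.04e-07), Tlr2 (−2.21, adjusted p = 4.28e-07) and Itih5 (−2.12, adjusted p = 1.85e-07). They were higher for Hmmr, Cemip (5.14, adjusted p = 9.74e-06) and, among the ERM proteins, Msn. The falls of Uap1, Hexa, Tlr2 and Itih5 exceed the shift of 0.70 that the library total as a scale gives all genes, while 5 of the 6 precursor enzymes, Gnpnat1 (−0.75), Pgm3 (−0.82), Uap1l1 (−1.07), Ugp2 (−0.79) and Pgm2 (−0.59), were not called under it, and the sign of Pgm2 turned (0.11). The call of Ptx3 (−0.70) was lost with quantile normalization, where its sign turned (0.13), and with the library total. Pgm2 was also not called without ASC replicate 1 (−0.37) or injured FAP replicate 2 (−0.58). Stab1 (−1.03), Lyve1 (−1.01) and Slc35d2 (0.79) were called here but lost under 15, 9 and 11 settings. Examples are Stab1 without injured FAP replicate 3 (−0.75), Lyve1 without ASC replicate 2 (−0.78) and Slc35d2 without ASC replicate 1 (0.41).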

How the data were processed

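The signal values are reads per gene divided by 1 size factor per library, as deposited by the authors, who aligned to mm10 with HISAT2, counted with featureCounts of Subread and scaled with DESeq2. Strand setting and handling of multi-mapping reads are not given in the sources used here. Of the values, 100% were whole reads within 0.1 in all 9 libraries once the size factor was undone. Genes were tested with limma 3.58.1 in R 4.3.3. On recovered reads edgeR 4.0.16 called 7303 genes and DESeq2 1.42.0 called 7227 between injured FAPs and FAPs (limma 7153), 6450 and 6412 between ASCs and FAPs (limma 6416), and 7000 and 6865 between injured FAPs and ASCs (limma 6909). The 9 genes, the pathway list and the marker lists were chosen with earlier results of these data known. Pathway genes called in any comparison are named, apart from what was left out of the text, and counts are over the whole list. Lengths and overlaps are from GENCODE M21.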

Additional observations from a re-analysis of the deposited data

Results flagged for a closer look

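The CD31+CD45+ library, in no test, lay above all 8 other libraries for Hyal1 (628, highest other 473), Hyal2 (2109, 325), Amdhd2 (312, 251), Gnpda2 (458, 320.1), Slc35d2 (217, 154), Slc35a3 (1089, 720.0), Has3 (1857, 51.3), Lyve1 (1092, 40.8), Stab1 (8473, 228) and Msn (29439, 25356). It is 1 library, so no spread can be given.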

How the results depend on the processing

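The log2 fold changes of the 9 genes between injured FAPs and FAPs were recomputed under 19 alternatives: pseudocounts, filters, scalings, the compared groups alone, a replicate block, edgeR, DESeq2 and each library left out. All 9 genes kept their call in each. The sign of Hyal2 turned, uncalled, with the library total as the scale (log2 fold change 0.0684) and without FAP replicate 2 (0.0209), against −0.06 in the fit used and −0.15 without FAP replicate 1. Adjusted p for Hyal2 ran from 0.610 to 0.957. Replicate numbers do not pair samples. With the replicate number as a replicate block, injured FAPs and FAPs differed in 7046 called genes, ASCs and FAPs in 6287, and ASCs and injured FAPs in 6861, and 7 of the 9 genes were called, as without it.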
